A study of Mus musculus with 8 samples.

Results

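The comparison described here asks what the loss of pRb added to mouse skin that already lacked p53. It set 2 microarrays of pRb-/-;p53-/- skin (double-null) against 2 microarrays of pRb+/+;p53-/- skin (p53-null), over all 22690 probe sets of the array, out of 8 arrays in the series. Both groups lacked p53, so the groups compared differed by label in pRb alone. The other 4 arrays, 2 of pRb-/-;p53+/+ skin (pRb-null) and 2 of Control skin, entered only the estimate of the spread and were used beside the main values to show what pRb loss gave where p53 was present. Every array carried biotin-labelled RNA from the whole skin of newborn FVB mice, an albino inbred strain, and each was a pool of RNA from 3 animals. The series describes the genes as inactivated somatically in stratified epithelia; the Cre driver was not given in the sources used here. Whole skin also holds dermis, fat, muscle, vessels, nerves and immune cells that keep both genes in such a model.

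pRb, the product of Rb1, binds E2F transcription factors and holds back the genes that a cell needs to copy its DNA. Cyclin D and cyclin E kinases release it by phosphorylation, and the pocket proteins p107 and p130, products of Rbl1 and Rbl2, bind E2F factors too. p53 acts on the same switch through the kinase inhibitor p21, product of Cdkn1a, and also restrains damaged cells by arrest or death. In epidermis, pRb is known for coupling exit from the cell cycle to keratinocyte differentiation.

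The deposited values were scores, with the mean of each probe set over the 8 arrays at 0 and its SD at 1. A difference of 1 is therefore 1 SD of that probe set over all arrays. Expression levels are lost on this scale, so no fold change could be given, the presence of keratinocyte markers could not be checked, and a small absolute change weighs as much as a large one. Because every row was standardized over the same 8 arrays, the values of the 4 groups are tied to each other. In whole skin, fewer cells of a type and less RNA per cell cannot be told apart. Differences below are double-null minus p53-null with the standard error of limma's ordinary linear model, and each group mean rests on 2 arrays. The labels do not say that the 2 arrays of a group came from different pools. The p-values then measure only how far arrays lie apart, which may be technical.

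The array medians lay between -0.163 and 0.228, and the scores of the 2 double-null arrays correlated across probe sets at r = 0.185, those of the 2 p53-null arrays at r = 0.339. The groups also differed in sex-linked genes. Xist, the RNA that silences 1 X chromosome in females, scored lower in double-null skin with 3 of 3 probe sets, by -2.48 ± 0.35, -2.13 ± 0.31 and -1.80 ± 0.53. Of 7 probe sets of Y-linked genes, 5 scored higher at p under 0.05, among them Uty (2.27 ± 0.36), Kdm5d (2.33 ± 0.62) and Eif2s3y (2.17 ± 0.56). The labels do not give the sexes of the pooled animals, and the part of sex in any result below was not tested.

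Promoters of 4 cell cycle genes are shown because replication genes and mitosis genes, whose promoters carry different motifs, are set against each other below. Mcm6, a subunit of the replicative helicase, is a replication gene with E2F motifs. Ncapd2 (a condensin subunit), Mki67 (the Ki-67 antigen) and Cdk1 (the mitotic kinase) are mitotic genes with the element called CHR, which is bound by the DREAM and B-Myb complexes. Each run is the 250 bases before the RefSeq start on assembly GRCm38.p6, minus strand, read 5′ to 3′ along the gene: chr1:128359706-128359955, chr6:125191587-125191836, chr7:135716380-135716629 and chr10:69352913-69353162. Capitals mark the letters TTTGGCGC or TTTCGCGC (E2F), TTTGAA (CHR) and CCAAT, on either strand, so that CCAAT on the other strand reads ATTGG.
Mcm6: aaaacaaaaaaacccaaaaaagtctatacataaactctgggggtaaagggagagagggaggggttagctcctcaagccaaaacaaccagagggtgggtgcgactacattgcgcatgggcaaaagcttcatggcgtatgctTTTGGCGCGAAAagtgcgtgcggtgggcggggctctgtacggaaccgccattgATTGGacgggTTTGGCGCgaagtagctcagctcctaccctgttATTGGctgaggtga
Ncapd2: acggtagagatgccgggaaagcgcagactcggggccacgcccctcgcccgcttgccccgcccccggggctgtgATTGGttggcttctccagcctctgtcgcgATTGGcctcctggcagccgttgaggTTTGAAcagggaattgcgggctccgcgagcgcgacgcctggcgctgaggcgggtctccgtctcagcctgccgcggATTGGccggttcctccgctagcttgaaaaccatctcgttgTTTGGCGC
Mki67: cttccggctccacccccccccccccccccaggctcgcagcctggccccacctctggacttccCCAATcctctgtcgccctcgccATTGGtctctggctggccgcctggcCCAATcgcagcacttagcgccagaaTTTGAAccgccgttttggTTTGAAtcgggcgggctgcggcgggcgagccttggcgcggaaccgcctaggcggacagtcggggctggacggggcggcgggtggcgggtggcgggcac
Cdk1: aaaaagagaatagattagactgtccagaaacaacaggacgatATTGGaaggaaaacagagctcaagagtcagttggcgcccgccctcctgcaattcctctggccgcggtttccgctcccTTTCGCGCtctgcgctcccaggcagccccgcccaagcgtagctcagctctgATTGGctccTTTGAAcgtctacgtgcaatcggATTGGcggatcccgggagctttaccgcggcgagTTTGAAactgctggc
The first long run of capitals in Mcm6 is a pair of overlapping E2F matches on opposite strands, beginning 110 and 106 bases before the start, and a further match begins 47 bases before it. In Mki67 the CHR letters begin 116 and 98 bases before the start, in Ncapd2 123 bases, and in Cdk1 71 and 15 bases. Ncapd2 and Cdk1 also hold an E2F match, beginning 8 and 131 bases before the start, as did 2 of the 48 mitosis promoters in all. Among all 32851 RefSeq promoter windows of 300 bases, 0.813% held an E2F match, 17.9% a CHR match and 37.4% CCAAT. Of 49 promoters of origin licensing and replication fork genes, 20.4% held E2F letters and 14.3% CHR letters. Of 48 promoters of mitosis genes, 4.17% held E2F letters and 75.0% CHR letters. A match is a description of these letters in this window, not evidence of binding.

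Rb1 itself had a single probe set on the array. It scored 1.20 and 0.80 in Control, -0.71 and 0.44 in pRb-null, 0.50 and 0.22 in p53-null, and -0.55 and -1.90 in double-null skin. Both double-null arrays lay below both p53-null arrays, with a difference of -1.58 ± 0.65 that did not pass the test (limma adjusted p = 0.455). It is not known here whether this probe set reads the sequence that was deleted, so it is a limited check of the labels. Trp53 was not analysed here. Of the other pocket proteins, Rbl1 (-1.25 ± 1.12 and -0.92 ± 1.07) and Rbl2 (-0.79 ± 0.88 and 0.03 ± 0.93) differed by about their standard errors or less.

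Across the array, 8 of 22626 probe sets that are not array controls (0.0354%) passed an adjusted p under 0.05. At an unadjusted p under 0.05, 1354 (5.98%) scored higher and 1340 (5.92%) lower in double-null skin, and the median difference over all probe sets was 0.04. The 2 double-null arrays lay above both p53-null arrays for 24.3% of probe sets and below both for 25.2%. Below, "p under 0.05" without the word adjusted refers to this unadjusted value, and counts of genes in a list are read against these shares. The count of calls was 0 under limma's moderated statistic, 0 when only the 4 arrays compared were fitted, and 0 or 1 when any 1 of the 8 arrays was left out. The 2694 probe sets at p under 0.05 became 1535 without p53-null array 1.

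The probe sets that rose were 3. Slurp1, a secreted Ly6-family protein of differentiating keratinocytes that is mutated in a palmoplantar keratoderma, scored -1.46 and -1.61 in p53-null and 0.98 and 1.00 in double-null skin. It rose by 2.53 ± 0.07 (limma adjusted p = 0.045). Bbox1, the last enzyme of carnitine synthesis, scored -0.82 and -0.74 in p53-null and 1.63 and 1.49 in double-null skin, a rise of 2.35 ± 0.10 (limma adjusted p = 0.0495). Cap1, an actin-binding protein, scored -1.62 and -1.54 against 0.31 and 0.17, a rise of 1.82 ± 0.07 (limma adjusted p = 0.045). A second Cap1 probe set differed by 1.77 ± 0.10 with an adjusted p of 0.068 by limma.

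Of the 5 probe sets that fell, 4 carry 1 gene symbol. Tnnc1, troponin C of slow muscle and heart, scored 1.39 and 1.33 in p53-null and -0.40 and -0.41 in double-null skin, and fell by 1.77 ± 0.05 (limma adjusted p = 0.045). Tnmd, tenomodulin of tendon and ligament, scored 0.45 and 0.55 against -1.52 and -1.65, and fell by 2.08 ± 0.08 (limma adjusted p = 0.045). Rxylt1, which helps build the sugar chain of dystroglycan, scored 1.56 and 1.53 against -0.29 and -0.24, and fell by 1.81 ± 0.07 (limma adjusted p = 0.045). Marcks, a kinase substrate that crosslinks actin at the membrane, scored 0.10 and 0.04 against -1.42 and -1.46 with 1 probe set, which fell by 1.51 ± 0.05 (limma adjusted p = 0.045). The other 5 Marcks probe sets differed by -1.76, -1.65, -1.27, -1.06 and 0.16, none with an adjusted p under 0.05. The fifth probe set that fell carries several symbols and is not named. For the 7 named probe sets the adjusted p ranged over the other settings from 0.0198 to 0.728, while the difference kept its sign.

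**Figure D1:**
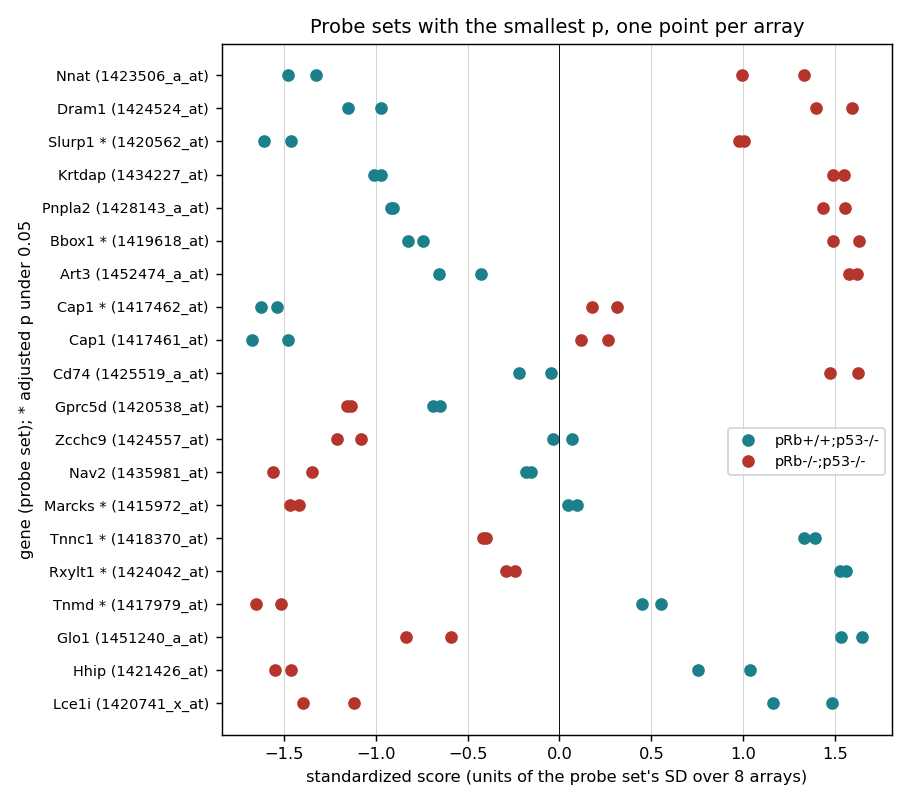
Scores of the 20 probe sets with 1 gene symbol named by smallest p, 10 higher and 10 lower in double-null skin, with each point 1 array of the 4 compared. The 20 were taken from probe sets whose 2 groups do not overlap, so the separation of the groups was a condition of the choice. Slurp1 runs from -1.61 to 1.00 and Gprc5d only from -0.65 to -1.16.

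The probe sets next by smallest p did not pass the adjusted test. Pnpla2, the triglyceride lipase ATGL, scored -0.92 and -0.90 in p53-null and 1.43 and 1.55 in double-null skin (2.40 ± 0.11, limma adjusted p = 0.068), but its other probe set differed by -0.37 ± 1.14. Krtdap, a keratinocyte differentiation protein, scored -0.97 and -1.01 against 1.55 and 1.49. Dram1, a lysosomal protein of autophagy, scored -0.97 and -1.15 against 1.40 and 1.59. Cd74, Nnat, Art3, Cidec and the second Cap1 probe set had the same adjusted p of 0.068 by limma on the higher side. On the lower side, Hhip, which sequesters Hedgehog ligands, scored 1.04 and 0.76 in p53-null and -1.55 and -1.46 in double-null skin (-2.40 ± 0.12, limma adjusted p = 0.068), and its second probe set differed by -2.03 ± 0.63. Glo1, the detoxifying enzyme glyoxalase, scored lower with all 3 probe sets, by -2.30, -2.18 and -2.25. Gprc5d, an orphan receptor of hair follicles, had the narrowest shift, -0.48 ± 0.03, with both groups below 0.

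Genes of the E2F pathway were examined next, at the level of their transcripts. The E2F and DP factors, 7 genes with 9 probe sets, had a median difference of -0.07, with 0 probe sets higher and 1 lower at p under 0.05. The median was 0.56 without p53-null array 1 and -0.70 without p53-null array 2, so it had no settled sign. The lower probe set was Tfdp1, the dimer partner DP1, at -0.005 and -0.205 in p53-null and -1.13 and -1.20 in double-null skin (-1.06 ± 0.33, limma adjusted p = 0.373). E2f1, an activator E2F and itself an E2F target, differed by -0.07 ± 0.63 and 0.09 ± 1.14, where the first of these probe sets had 2.11 in pRb-null minus Control. E2f3 differed by -1.37 ± 0.69.

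Origin licensing genes, 21 genes with 42 probe sets, had a median difference of -0.24, and 1 probe set scored higher and 0 lower at p under 0.05. The replication fork list, 26 genes with 42 probe sets, had a median of -0.26, with 1 higher and 3 lower. Both shares are near or below those over all probe sets. In pRb-null minus Control skin the same lists had medians of 0.78 and 0.99, with 3 and 7 probe sets higher and 3 and 0 lower, where 6.38% of all probe sets were higher and 4.22% lower. Neither median kept its sign over the arrays: the licensing median was 0.17 without double-null array 2, and the fork median 0.01 without double-null array 1.

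Mcm6, whose promoter is printed above, scored -1.41 and -1.64 in Control, 0.54 and 0.35 in pRb-null, 0.54 and -0.16 in p53-null, and 0.80 and 0.98 in double-null skin. Control stood below the other 3 groups, and the double-null arrays lay above the p53-null arrays by 0.70 ± 0.27 (limma adjusted p = 0.444), while a second probe set differed by -0.29 ± 1.26. Pcna, the sliding clamp, scored 0.30 and -0.45 in p53-null and 0.80 and 1.17 in double-null skin, 1.06 ± 0.40 higher (limma adjusted p = 0.433), where pRb-null minus Control was 1.89. Rpa1, which coats single-stranded DNA, scored -0.10 and -0.32 against 1.45 and 1.11, a difference of 1.48 ± 0.29 (limma adjusted p = 0.246) beside 1.47 in pRb-null minus Control, and a second probe set differed by 0.62 ± 0.91. Rfc1, the large subunit of the clamp loader, went the other way. It scored 0.64 and 0.41 in p53-null and -0.58 and -0.64 in double-null skin, -1.14 ± 0.19 (limma adjusted p = 0.21), where pRb-null minus Control was 2.35. Its other probe sets differed by -0.84 ± 0.97 and -0.42 ± 0.87. The clamp loader subunits Rfc3 (-1.16 ± 0.38) and Rfc4 (-1.63 ± 0.42) scored lower with 1 of 2 probe sets each, the others at -0.24 ± 0.43 and -1.75 ± 0.80. Orc3, an origin recognition subunit, scored higher with 1 of 3 (1.73 ± 0.40), the others at -0.45 ± 0.37 and -0.97 ± 1.08.

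The difference of the 2 differences, (double-null minus p53-null) minus (pRb-null minus Control), was also fitted for every probe set. No probe set passed an adjusted p under 0.05 by limma, and 4.47% were higher and 5.98% lower at p under 0.05. The smallest adjusted p was 0.0954, and the 5 genes with the smallest unadjusted p, Usp19, Slurp1, Ptprf, Bbox1 and Fscn1, were among those that shared it. Edaradd and Hhip shared it too. Usp19, a deubiquitinase, scored 1.10 and 1.19 in Control and -1.38 and -1.54 in pRb-null, but 0.11 and 0.15 in p53-null and 0.15 and 0.21 in double-null skin with this probe set, and its other 2 probe sets differed in sign. The median of this interaction was -0.95 for origin licensing and -0.83 for replication fork, against -0.04 over all probe sets. For Rfc1 it was -3.49 ± 0.27.

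**Figure D2:**
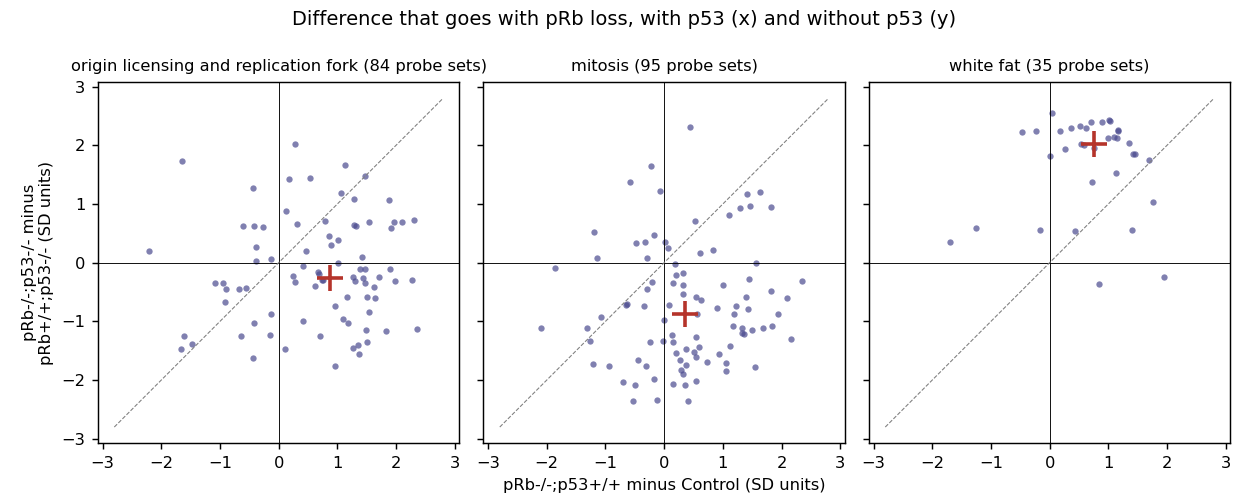
Each point is 1 probe set, with the score difference pRb-null minus Control on the horizontal axis and double-null minus p53-null on the vertical axis, for replication genes (84 probe sets), mitosis genes (95) and white fat genes (35); the cross is the median and the dashed line marks equality. The crosses of replication and mitosis genes lie right of 0 and below 0, and that of white fat genes lies right of 0 (0.75) and at 2.02 on the vertical axis.

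Mitosis genes scored lower as a group. Of 95 probe sets of 53 genes, 24 (25.3%) of 21 genes scored lower and 1 higher at p under 0.05, with a median difference of -0.88, and 52 had both double-null arrays below both p53-null arrays. Ncapd2 scored 1.78 and 1.31 in p53-null and -0.62 and -0.99 in double-null skin (-2.35 ± 0.22, limma adjusted p = 0.121). Mki67, the proliferation antigen, scored 0.10 and -0.04 against -1.46 and -1.55 (-1.54 ± 0.25, limma adjusted p = 0.204). Incenp, the scaffold of the chromosomal passenger complex, scored 0.25 and 0.45 against -1.61 and -1.51 (-1.90 ± 0.29, limma adjusted p = 0.192), and its other probe sets differed by -1.31 ± 0.40 and -1.34 ± 1.03. The groups of these 3 genes did not overlap, but the genes were chosen by smallest p. Over all probe sets, 25.2% lay below in this way. Tpx2, a spindle assembly factor (-2.35 ± 0.45, second probe set -1.08 ± 0.76), and the mitotic kinase Plk1 (-1.56 ± 0.31) scored lower too. The 2 probe sets of Cdca3 disagreed, at 2.30 ± 0.55 and -2.34 ± 0.59.

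The median score of the mitosis list was -0.20 and -0.08 in Control, 0.27 and 0.09 in pRb-null, 0.51 and 0.30 in p53-null, and -0.39 and -0.43 in double-null skin. The p53-null arrays were thus highest and the double-null arrays lowest of the 4 groups. In pRb-null minus Control the list had a median of 0.35, with 10 probe sets higher and 3 lower, and the interaction had a median of -1.37, with 1 higher and 21 lower at p under 0.05. Of 16 promoters found for the mitosis genes that scored lower, 12 (75.0%) held the CHR letters, the same share as in the whole list. The 24 probe sets lower at p under 0.05 became 10 without p53-null array 1, 13 without p53-null array 2, 20 without double-null array 1 and 10 without double-null array 2. The median stayed between -1.12 and -0.71 over these 4 fits.

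The list of G1 cyclins and their kinases, which also counts cyclin A2, had more probe sets lower than higher. Of 22 probe sets of 10 cyclin and kinase genes, 8 (36.4%) scored lower and 1 higher at p under 0.05, with a median of -1.29. Ccnd2, cyclin D2, was lower with all 7 of its probe sets, 5 of them at p under 0.05. Its probe set with the smallest p scored 0.45 and 1.15 in p53-null and -1.86 and -1.19 in double-null skin (-2.32 ± 0.36, limma adjusted p = 0.192). Ccnd1, cyclin D1, was lower with 3 of 3 probe sets, 1 at p under 0.05 (-1.19 ± 0.32), and Ccna2, cyclin A2, differed by -2.25 ± 0.45 and -1.39 ± 0.68. Cyclin E1 went the other way. Ccne1, an E2F target that binds Cdk2, scored -1.45 and -1.21 in p53-null and 1.46 and 0.46 in double-null skin (2.29 ± 0.40, limma adjusted p = 0.217). The 8 lower probe sets became 5 and 4 without p53-null array 1 and 2, and 5 and 7 without double-null array 1 and 2.

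Among 7 kinase inhibitor genes with 9 probe sets, 2 scored higher and 2 lower at p under 0.05. Cdkn1a, p21, scored -0.62 and -0.55 in p53-null and 1.67 and 1.42 in double-null skin (2.12 ± 0.21, limma adjusted p = 0.123). Its second probe set scored -1.72 and -0.98 against -0.40 and -0.09 (1.11 ± 0.29). Both double-null arrays lay above both p53-null arrays with each probe set, as they did for 24.3% of all probe sets. Cdkn1a is a p53 target, and both groups lack p53 by label. Of 55 probe sets of 34 target genes, 7 scored higher (12.7%) and 0 lower at p under 0.05, with a median of 0.09, among them Thbs1 (1.97 ± 0.35), Pmaip1 (2.02 ± 0.61) and both probe sets of Btg2 (1.52 ± 0.45 and 1.73 ± 0.57). The 7 became 3 without either p53-null array, 3 probe sets were lower without double-null array 1, and the median was -0.06 without p53-null array 2. Cdkn1c, the imprinted inhibitor p57, scored 1.73 and 1.36 against -0.46 and -0.71 (-2.13 ± 0.33, limma adjusted p = 0.198).

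In the DNA damage list 3 of 40 probe sets scored higher and 3 lower, and in the Bcl2 and caspase list 2 of 54 higher and 3 lower, near the shares over all probe sets. In nucleotide synthesis 0 of 28 scored higher and 2 lower, Tk1, the salvage kinase of thymidine (0.89 and 0.70 against -0.90 and -1.28, -1.89 ± 0.56), and Mthfd1, of folate metabolism (-2.03 ± 0.70, with other probe sets at -1.35 ± 0.68 and -0.51 ± 0.42).

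**Figure D3:**
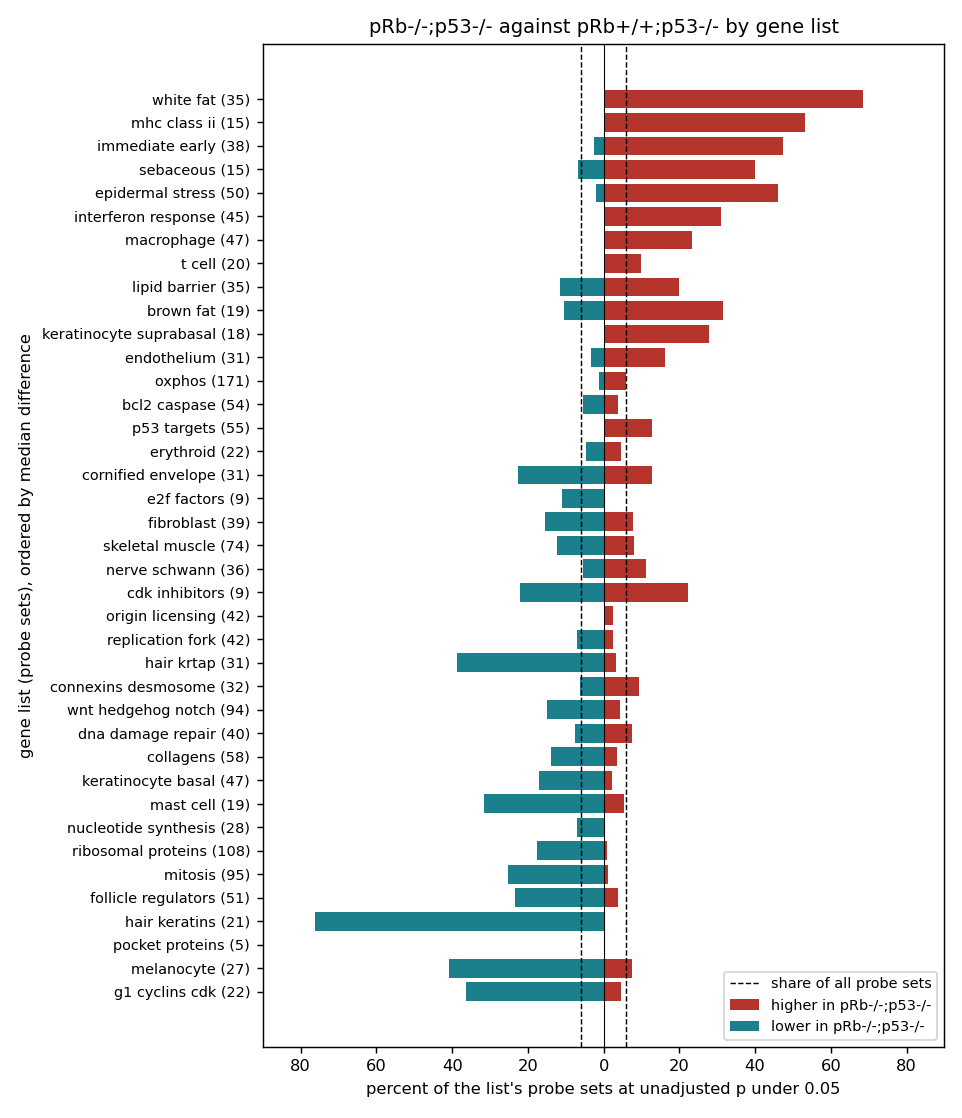
Share of each of 39 gene lists' probe sets at p under 0.05, in percent, with bars to the right for higher and to the left for lower scores in double-null skin; the dashed lines are the shares over all probe sets, 5.98% and 5.92%. White fat genes reach 68.6% higher and hair keratins 76.2% lower, while origin licensing genes stay at 2.38% higher and 0% lower.

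White fat genes had the highest share of probe sets that scored higher of the 39 lists drawn. Of 35 probe sets of 21 genes, 24 (68.6%) of 17 genes scored higher and 0 lower at p under 0.05, with a median difference of 2.02. In 29, both double-null arrays lay above both p53-null arrays, as they did for 24.3% of all probe sets. Cidec, a coat protein of large lipid droplets, scored -1.45 and -1.28 in p53-null and 0.79 and 1.01 in double-null skin (2.27 ± 0.13, limma adjusted p = 0.068). Lipe, hormone-sensitive lipase, scored -1.22 and -1.28 against 1.14 and 1.21 (2.42 ± 0.16, limma adjusted p = 0.0791). Retn, the hormone resistin, scored -1.22 and -1.21 against 1.04 and 1.33 (2.41 ± 0.20, limma adjusted p = 0.105). The groups were far apart in each, but these genes were chosen by smallest p. The adipose hormones Adipoq (2.12 ± 0.18) and Lep (2.34 ± 0.33) and the adipocyte regulator Pparg (1.95 ± 0.63) scored higher as well.

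The median score of the white fat list was -0.32 and -0.30 in Control, 0.62 and 0.53 in pRb-null, -1.18 and -1.07 in p53-null, and 0.99 and 0.66 in double-null skin. Both groups without pRb stood above both groups with it. In pRb-null minus Control 14 probe sets scored higher and 1 lower (median 0.75), and the interaction was higher for 13 and lower for 0. Without any 1 of the 4 arrays compared the list median stayed between 1.80 and 2.24. Brown fat genes were mixed, with 6 of 19 probe sets higher and 2 lower. Ucp1, the uncoupling protein of brown fat, scored 0.53 and 0.59 in p53-null and 1.35 and 1.12 in double-null skin (0.67 ± 0.09, limma adjusted p = 0.171), and Pdk4, a brake on glucose oxidation, -1.35 and -1.76 against 0.37 and 0.71 (2.09 ± 0.21). Zic1, a brown fat marker, was lower by -1.88. In the sebaceous list, which shares genes of lipid storage with the fat and barrier lists, 6 of 15 probe sets were higher and 1 lower, and the 6 became 3 and 2 without p53-null array 1 and 2, and 2 and 3 without double-null array 1 and 2.

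Genes of the epidermal stress response, induced in wounded or inflamed epidermis, formed the next large group. Of 50 probe sets of 39 genes, 23 (46.0%) of 20 genes scored higher and 1 lower at p under 0.05, with a median of 1.39. Krt16, a keratin of activated keratinocytes, scored -0.90 and -0.70 in p53-null and 1.50 and 1.38 in double-null skin (2.24 ± 0.14, limma adjusted p = 0.0791). S100a8, a calgranulin subunit, scored 0.15 and 0.25 against 1.51 and 1.38 (1.25 ± 0.08, limma adjusted p = 0.0791). Il1f9, an interleukin of the IL-1 family made by keratinocytes, scored -0.24 and -0.44 against 1.54 and 1.34 (1.78 ± 0.16, limma adjusted p = 0.115). The EGF-family ligand Ereg scored -1.13 and -0.93 against 1.57 and 1.14 (2.39 ± 0.26), and Krt6b differed by 2.35 ± 0.33. Only Sprr1a, a cornified envelope precursor, scored lower in this list at p under 0.05 (-0.83 ± 0.21). The list median was -0.45 and -0.54 in Control, 0.15 and 0.14 in pRb-null, -0.55 and -0.62 in p53-null, and 0.87 and 0.96 in double-null skin, highest in double-null skin. The interaction was higher for 14 probe sets and lower for 1.

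**Figure D4:**
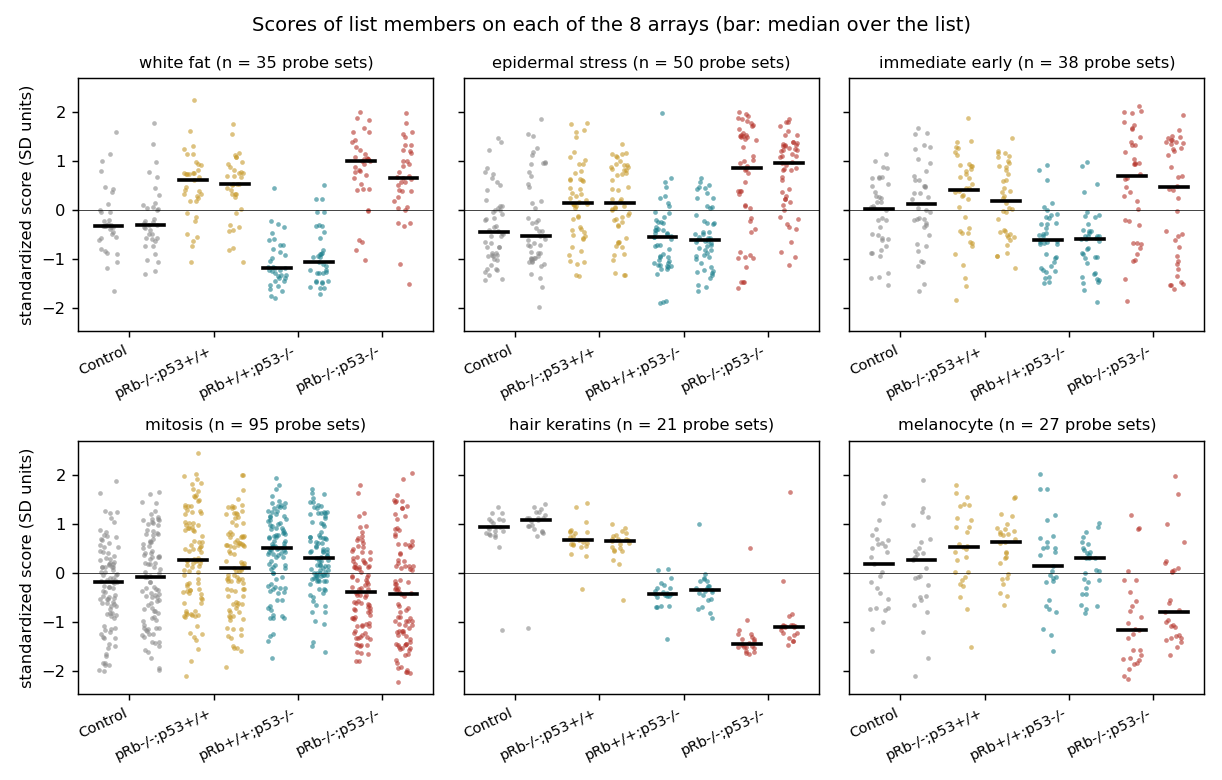
Scores of the probe sets of 6 gene lists on each of the 8 arrays, with 1 point per probe set and a line at the median of each array. The white fat medians run from -1.18 in a p53-null array to 0.99 in a double-null array, and the hair keratin medians from 1.08 in a Control array to -1.45 in a double-null array.

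Layers of the epidermis differed in direction. Of 47 probe sets of 23 basal keratinocyte genes, 1 scored higher and 8 (17.0%) lower at p under 0.05. Fgfr2, a receptor for keratinocyte growth factor, scored 1.10 and 0.43 in p53-null and -1.45 and -1.45 in double-null skin (-2.21 ± 0.37, limma adjusted p = 0.21), with a second probe set at -1.03 ± 0.36. Itga6, the integrin chain of hemidesmosomes, was lower with 1 probe set (-1.51 ± 0.40) and at 0.57 ± 0.98 with another. Trp63, the master factor of stratified epithelia, differed by -1.79 ± 0.57 with 1 probe set, and by -0.47 ± 0.34 and -0.43 ± 0.40 with the other two. In pRb-null minus Control 11 basal probe sets scored higher and 0 lower, and the interaction was higher for 0 and lower for 11. The basal list's median of -0.43 ran from -0.49 to -0.28 without 1 array, and its lower probe sets were 4 and 3 without p53-null array 1 and 2, and 5 and 3 without double-null array 1 and 2.

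Of 18 suprabasal probe sets, 5 scored higher and 0 lower at p under 0.05. Beside Krtdap, Krt77, a keratin of suprabasal cells, scored -1.40 and -1.23 in p53-null and 1.37 and 0.95 in double-null skin (2.48 ± 0.18, limma adjusted p = 0.0858). The desmosomal cadherin Dsc1 (1.34 ± 0.39) and the factor Ovol1 (1.34 ± 0.31, second probe set 0.11 ± 0.52) followed. The 5 became 3 without p53-null array 1 and 3 without double-null array 1. The list's median of 0.43 was 0.15 without double-null array 1 and 1.14 without double-null array 2.

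The cornified envelope list split. Of 31 probe sets, 4 were higher and 7 lower at p under 0.05, with a median of -0.03. The median was -0.39 without p53-null array 1 and 0.26 without p53-null array 2, and the 7 became 4 without p53-null array 1. The lower side held 5 late envelope genes of the Lce1 family, Sprr1a and Tchh, trichohyalin of the inner root sheath, which is counted among hair keratins as well. Lce1i scored 1.48 and 1.16 in p53-null and -1.12 and -1.39 in double-null skin (-2.58 ± 0.15, limma adjusted p = 0.0769), and Lce1h differed by -2.56 ± 0.25. These genes are near-identical and their probe sets may share targets. The higher side held Rptn, repetin, at -0.88 and -0.73 against 1.20 and 1.16 (1.99 ± 0.17, limma adjusted p = 0.105), whose other 2 probe sets differed by 1.48 ± 1.10 and 0.43 ± 0.47, and also Sprr1b, Casp14 and Asprv1. In the lipid barrier list 7 of 35 probe sets were higher and 4 lower, and the 7 became 2 without either p53-null array and 3 without double-null array 1. Aloxe3 (2.12 ± 0.42) and Alox12b (2.01 ± 0.49), the paired lipoxygenases of the barrier, scored higher, and the fatty acid elongase Elovl6 lower with both probe sets (-1.29 ± 0.18 and -0.80 ± 0.21). Scd1, a desaturase, differed by 2.35 ± 0.42 with 1 probe set and -0.01 ± 0.90 with the other. The connexin and desmosome list had 3 of 32 probe sets higher and 2 lower at p under 0.05 (9.38% and 6.25%). Over all probe sets the shares were 5.98% and 5.92%. Among connexins, Gjb6 (connexin 30) and Gjb5 were higher, by 1.09 ± 0.10 and 1.52 ± 0.36, and Gjb2 (connexin 26) was lower by -0.72 ± 0.20.

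Hair keratins had the highest share of lower probe sets of the lists drawn. Of 21 probe sets of 21 genes, 0 scored higher and 16 (76.2%) lower at p under 0.05, with a median of -0.91. In 19, both double-null arrays lay below both p53-null arrays, as they did for 25.2% of all probe sets. Krt35, a keratin of the hair cortex and cuticle, scored -0.24 and -0.26 in p53-null and -1.51 and -1.33 in double-null skin (-1.17 ± 0.10, limma adjusted p = 0.101). Krt25 and Krt71 are keratins of the inner root sheath. Krt25 scored -0.11 and -0.02 against -1.59 and -1.40 (-1.43 ± 0.13, limma adjusted p = 0.113), and Krt71 differed by -1.51 ± 0.14. The list median was 0.93 and 1.08 in Control, 0.67 and 0.65 in pRb-null, -0.43 and -0.36 in p53-null, and -1.45 and -1.10 in double-null skin. The 4 groups stood in this order without overlap. Without any 1 of the 4 arrays compared, 13 to 16 of the probe sets were lower at p under 0.05.

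Keratin-associated proteins, which bind hair keratins into a matrix, scored lower with 12 of 31 probe sets (38.7%) and higher with 1. Krtap6-5 scored -0.62 and -0.69 in p53-null and -1.21 and -1.09 in double-null skin (-0.50 ± 0.06, limma adjusted p = 0.148). The list's median was -0.30, where pRb-null minus Control had -0.74 and 22 probe sets lower. The 12 became 4 without p53-null array 1, and the median -0.20 without double-null array 1. These genes are similar in sequence, and their probe sets may share targets.

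Regulators of the hair follicle scored lower with 12 of 51 probe sets (23.5%) and higher with 2, with a median of -0.89. Cux1, a homeodomain factor of hair shaft and root sheath, was lower with 4 of 6 probe sets at p under 0.05, the first at 1.47 and 1.54 in p53-null and -1.22 and -0.32 in double-null skin (-2.28 ± 0.32, limma adjusted p = 0.182). Msx2, a factor of the hair matrix, scored -0.36 and -0.15 against -1.52 and -1.30 (-1.15 ± 0.13, limma adjusted p = 0.146). Edaradd, the adaptor of the Edar receptor, was higher, at -1.19 and -1.39 against 0.83 and 0.87 (2.14 ± 0.14, limma adjusted p = 0.0791). The 12 became 6 without p53-null array 1.

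Of 94 probe sets in the Wnt, Hedgehog and Notch list, 4 were higher and 14 (14.9%) lower at p under 0.05. Several act in Hedgehog signalling: Hhip as given above, the ligand Shh (-1.24), the receptor Ptch1 (-2.17 ± 0.65 and -0.94 ± 0.52) and the transducer Smo, at 0.57 and 0.34 in p53-null and -1.61 and -1.07 in double-null skin (-1.80 ± 0.29, limma adjusted p = 0.204). Wnt5a, a ligand of the non-canonical Wnt pathway, scored -0.05 and -0.26 against -1.63 and -1.27 (-1.30 ± 0.17), with a second probe set at -2.02 ± 0.55. Dkk2, a secreted Wnt inhibitor, differed by -1.92 ± 0.32. The 14 became 7 without p53-null array 1 and 9 without double-null array 2.

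Melanocyte genes also scored lower, with 11 of 27 probe sets (40.7%) and 2 higher, and a median of -1.07. Rab27a held 1 of the 2 higher probe sets (1.99 ± 0.35), and its others differed by -0.93 ± 0.43 and 0.62 ± 0.76. Dct, an enzyme of melanin synthesis, scored 0.74 and 0.73 in p53-null and -1.85 and -1.33 in double-null skin (-2.33 ± 0.18, limma adjusted p = 0.0963). Pmel, the fibril protein of melanosomes, scored 0.53 and 0.62 against -1.86 and -1.33 (-2.17 ± 0.21, limma adjusted p = 0.121). Tyrp1, a further enzyme of this pathway, was lower with 3 of 3 probe sets (-1.81, -2.01 and -1.70). FVB mice are albino through the tyrosinase gene, and their melanocytes still express such genes. The 11 became 6 without p53-null array 1 and 5 without double-null array 1. Hair keratins, follicle regulators and melanocyte genes each had more probe sets lower than higher here, and what part follicle content had was not tested.

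Immediate early genes, transcribed within minutes of a stimulus or of tissue handling, scored higher with 18 of 38 probe sets (47.4%) of 15 genes and lower with 1, with a median of 1.54. Dusp1, a phosphatase of MAP kinases, scored -0.50 and -0.11 in p53-null and 1.73 and 1.40 in double-null skin (1.87 ± 0.18, limma adjusted p = 0.123). Nr4a1, an orphan nuclear receptor, scored -1.13 and -0.98 against 1.32 and 1.35 (2.39 ± 0.27, limma adjusted p = 0.138). Fos, a subunit of AP-1, scored -0.66 and -0.78 against 1.67 and 1.43 (2.27 ± 0.34). In none of these 3 genes did the groups overlap, but the 3 were chosen by smallest p or after their values were seen. The list median was 0.02 and 0.13 in Control, 0.41 and 0.19 in pRb-null, -0.62 and -0.59 in p53-null, and 0.69 and 0.46 in double-null skin. The heat shock cochaperone Dnajb1 gave the 1 lower probe set (-0.67 ± 0.11), with another at -0.98 ± 0.44. The 18 became 10 without p53-null array 1, 9 without p53-null array 2 and 12 without double-null array 2. Cdkn1a, Btg2 and several epidermal stress genes also respond to handling and stress, and the part of tissue handling in these values was not tested.

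Genes of the interferon response, of MHC class II and of macrophages scored higher, and mast cell genes lower. In the interferon response 14 of 45 probe sets (31.1%) were higher and 0 lower, with a median of 1.29. Iigp1, an interferon-inducible GTPase, scored -0.90 and -0.96 in p53-null and 1.65 and 1.43 in double-null skin (2.47 ± 0.17, limma adjusted p = 0.0791), with a second probe set at 2.39 ± 0.24. Gbp2, of a related GTPase family, differed by 2.51 ± 0.25 and 2.44 ± 0.49. In the MHC class II list 8 of 15 probe sets were higher and 0 lower. Cd74, the invariant chain, scored -0.05 and -0.22 against 1.63 and 1.47 (1.68 ± 0.09, limma adjusted p = 0.068), and H2-Aa scored -0.89 and -1.06 against 1.51 and 1.45 with 1 probe set (2.45 ± 0.29) and differed by 0.30 ± 0.89 with the other. The interferon count became 8, 9 and 8 without p53-null array 1, p53-null array 2 and double-null array 2, and the class II count 4 without p53-null array 1.

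Macrophage genes scored higher with 11 of 47 probe sets (23.4%) and lower with 0, with a median of 1.01. Csf1r, the receptor for the macrophage growth factor, scored -1.47 and -1.66 in p53-null and 0.47 and 1.04 in double-null skin (2.32 ± 0.23, limma adjusted p = 0.123), but its other probe sets differed by 1.74 ± 0.83 and -0.09 ± 0.93. The scavenger receptor Msr1 (2.41 ± 0.27 and 2.32 ± 0.49 with 2 of its 4 probe sets) and the complement component C1qa (2.42 ± 0.38) were higher. The list median was -0.26 and -0.06 in p53-null and 1.09 and 0.59 in double-null skin. The 11 became 7 without p53-null array 1. T cell genes were higher with 2 of 20 probe sets and lower with 0, and the 2 became 0 without either p53-null array and 4 without double-null array 1.

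Mast cell genes scored lower with 6 of 19 probe sets and higher with 1. Tpsab1, a mast cell tryptase, scored 1.43 and 1.54 in p53-null and -0.09 and 0.22 in double-null skin (-1.42 ± 0.18, limma adjusted p = 0.163), and the carboxypeptidase Cpa3 differed by -0.87 ± 0.20. Kit, the stem cell factor receptor, which is on mast cells and melanocytes and counted in both lists, was lower by -2.12 ± 0.43 and -2.18 ± 0.74. The list median was -0.69 and -0.48 in Control, -0.50 and -0.80 in pRb-null, 1.10 and 0.94 in p53-null, and 0.35 and 0.55 in double-null skin, so that both p53-deficient groups stood above the others. The median difference of -0.56 was -0.33 without p53-null array 2 and -0.36 without double-null array 1.

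Skeletal muscle genes, which in whole skin report the panniculus carnosus, went both ways. Of 74 probe sets of 46 genes, 6 were higher and 9 lower at p under 0.05, with a median of -0.08. Beside Tnnc1, the lower side held Myh3, the embryonic myosin heavy chain, at 1.38 and 1.17 in p53-null and -0.70 and -0.94 in double-null skin (-2.09 ± 0.17, limma adjusted p = 0.101). The troponins Tnnt1 (1.23 and 1.28 against -1.15 and -1.07, -2.36 ± 0.26) and Tnni1 (-1.47 ± 0.16) of slow fibres were lower too. Myog, a factor of differentiating myoblasts, and Chrng, the fetal acetylcholine receptor subunit, differed by -2.01 and -1.83. Casq2, the calsequestrin of slow fibres and heart (-2.32), Tpm1 (-1.15) and Ldb3 (-2.09) completed the 9. Chrng and Ldb3 had other probe sets above 0, at 1.25 ± 0.76 and 1.68 ± 0.68. On the higher side, Myh1, an adult fast myosin, scored -1.03 and -1.25 against -0.61 and -0.53 (0.57 ± 0.11), and Casq1 (1.83 ± 0.35), Actn3 (1.21), Tnni2 (1.29, with others at -0.78 ± 0.79 and 0.29 ± 0.54) and the alpha actin Acta1 (1.15) followed, with the acetylcholine receptor subunit Chrnd (1.44 ± 0.20). In pRb-null minus Control, 18 muscle probe sets scored higher and 4 lower, with a median of 1.02. The 9 lower probe sets became 5 without p53-null array 1, and 12 without double-null array 1.

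**Figure D5:**
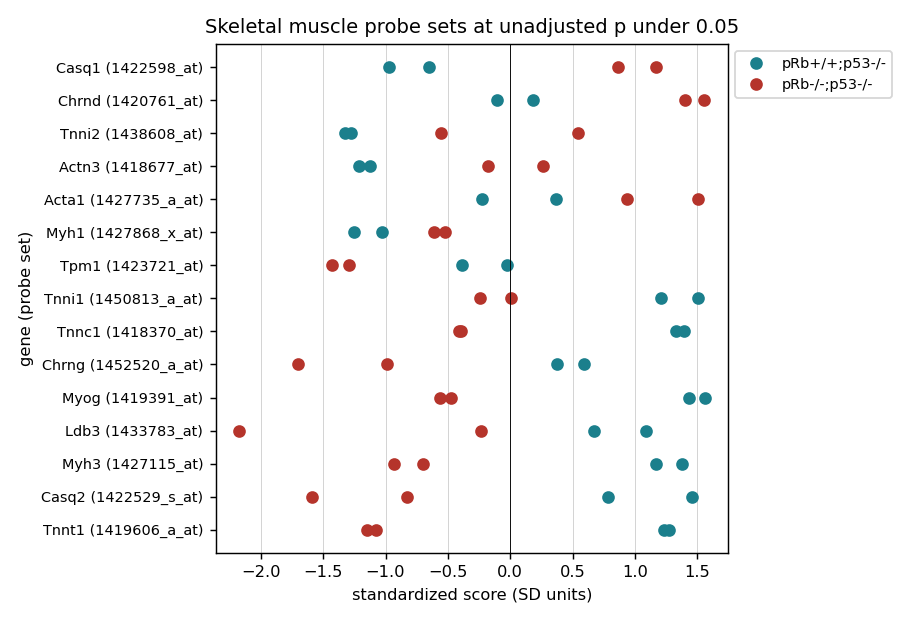
Scores of the 15 skeletal muscle probe sets at p under 0.05 on the 4 arrays compared, each point 1 array. Myh3 and Tnnt1 lie above 0 in p53-null and below 0 in double-null skin, and Myh1 lies below 0 in both groups.

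Ribosomal protein genes scored lower with 19 of 108 probe sets (17.6%) and higher with 1, with a median of -0.83. Rps24 was lower with 3 of 6 probe sets, the first at 0.37 and 0.24 in p53-null and -1.66 and -1.52 in double-null skin (-1.89 ± 0.18, limma adjusted p = 0.119), and Rps18 with 2 of 6, by -1.58 ± 0.15 and -1.34 ± 0.42. The median of pRb-null minus Control was -0.60, with 3 probe sets higher and 12 lower. The 19 became 8 without p53-null array 2, 10 without double-null array 1 and 11 without double-null array 2, and the median -0.51 without double-null array 1. Many processed pseudogenes resemble these genes, and most of the probe sets named end in _x_at, which marks probes that may match other transcripts.

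The remaining lists are given by their counts, to be read against 5.98% higher and 5.92% lower over all probe sets. Collagens had 2 of 58 probe sets higher and 8 lower, among them Col11a1, a fibrillar collagen (-1.07 ± 0.11, second probe set -0.60 ± 0.74), and the 8 became 5 without double-null array 1. Fibroblast genes had 3 of 39 higher (7.69%) and 6 lower (15.4%), with Fbln2 (fibulin 2) at -2.51 ± 0.35 and Fbn2 (fibrillin 2) at -1.71 ± 0.22. Mfap5, of the same list, was higher with both probe sets, by 1.48 ± 0.21 and 1.25 ± 0.36. The fibroblast median of -0.07 ran from -0.56 to 0.35 when 1 array was left out. Endothelial genes had 5 of 31 higher and 1 lower, led by the tight junction protein Cldn5 (-1.01 and -0.53 in p53-null and 1.49 and 1.41 in double-null skin, 2.22 ± 0.27), and the 5 became 2 and 3 without p53-null array 1 and 2, and 2 and 3 without double-null array 1 and 2. Nerve and Schwann cell genes had 4 of 36 higher (11.1%) and 2 lower (5.56%). Their median of -0.11 ran from -0.29 to 0.125 when 1 array was left out. Erythroid genes had 1 of 22 in each direction (4.55%). Oxidative phosphorylation genes had 10 of 171 higher (5.85%) and 2 lower (1.17%), the higher share near that over all probe sets. Their median of 0.21 was between 0.03 and 0.17 when 1 array was left out.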

How the data were processed

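The authors deposited 1 value per probe set and array, a score standardized within each row (mean 0 and SD 1 over the 8 arrays within 1e-06, tested on the file; scores from -2.43 to 2.45). RMA is the only tool per the submitters' processing notes; whether the scores were made from logarithms was not given in the sources used here. Gene symbols are those of the platform annotation, checked through Entrez numbers against RefSeq GRCm38.p6: of 22626 probe sets that are not the 64 array controls, 20380 had 1 symbol (20351 matched), 691 several and 1555 none, and only those with 1 symbol were named. The scores were fitted with limma 3.58.1 (R 4.3.3) on all 8 arrays, with a mean for each group and 4 residual degrees of freedom, two-sided, without moderation, with Benjamini-Hochberg adjustment over the 22626. This statistic was chosen because the moderated one was known to call none on standardized rows, so calls are exploratory; the fit was tested on simulated data. Lists are described by counts and medians, with no test. The lists and comparisons were chosen with earlier results of these data known. Named are the pocket proteins, then the called probe sets and the smallest p up to 10 in each direction, taken where the groups did not overlap. Also named are up to 4 genes a list by smallest p, and 5 by the interaction. Further genes were chosen after their values were seen. Promoter motifs were searched in Python 3.11.15 in RefSeq windows of 300 bases. Depth does not apply to arrays; their number limits the precision. The alternatives tried were moderation, only the 4 arrays, a replicate block, 2 scalings, 1 probe set or the mean per gene, dropping _s_at and _x_at probe sets, array weights, and leaving out each array. Replicate numbers were not taken to pair the samples.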

Additional observations from a re-analysis of the deposited data

Results flagged for a closer look

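Array control probe sets were left out of every comparison, and 5 of the 64 scored higher and 1 lower in double-null than in p53-null skin at p under 0.05 (limma, unadjusted), with a median difference of -0.317. The 5 that scored higher also stood above the Control arrays, which is why they are given here. The bacterial control AFFX-PheX-M differed by 1.28, with -1.62 and -0.99 in Control, 1.04 and 0.33 in pRb-null, -0.03 and -0.62 in p53-null, and 0.91 and 0.99 in double-null skin. The other probe sets of this transcript went the other way, AFFX-PheX-5 by -1.385 (the 1 lower control) and AFFX-PheX-3 by -0.899. The other 4 probe sets measure mouse pyruvate carboxylase, an enzyme of gluconeogenesis and lipogenesis that the array carries as a control transcript. Its probe sets differed by 2.36 (PyruCarbMur 3, with -1.60 and -1.12 in p53-null and 1.17 and 0.82 in double-null skin), 1.16 (PyruCarbMur 5), 1.66 (PyruCarbMur MA) and 1.82 (PyruCarbMur MB).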

How the results depend on the processing

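Of the 191 named probe sets at p under 0.05, 0 turned sign under any setting on the same probe set. This count was close to fixed in advance, because most were named for a small p. Moderation, the 4-array fit, the block, array weights and leaving out Control or pRb-null arrays leave the difference itself unchanged. Where the groups do not overlap, leaving out 1 array cannot turn the sign. Settings with 1 value per gene are not in the count. The 8 calls became 0 with moderation (2953 at p under 0.05), 0 with only the 4 arrays compared, 0 with the replicate block, 1 after quantile normalization, 4 after median centring, 5 with 1 probe set per gene and 17 with probe sets averaged per gene. Leaving out 1 array gave 0 to 1 calls and 1535 to 3296 probe sets at p under 0.05 (interaction 0 to 1 and 1475 to 2791). The replicate block left 2367 at p under 0.05. The difference of array 1 minus array 2 correlated across probe sets at 0.197 between the p53-null and double-null groups. For the other pairs of groups this correlation was -0.163 to -0.001, so the numbers were not taken as pairs. Among the lists the text leads with, medians that moved beyond the spread between arrays were, after quantile normalization, replication fork -0.348, mitosis -0.993, immediate early 1.418, keratin-associated proteins -0.181 and mast cell -0.717, and for keratin-associated proteins -0.352 after median centring. With 1 probe set per gene they were G1 cyclins -0.968, mitosis -1.077, ribosomal -0.433, basal -0.707, mast cell -0.22 and muscle -0.2, and Bcl2 and caspase, a further list, turned to -0.066. With the mean per gene they were G1 cyclins -0.93, class II 1.378, ribosomal -0.541, epidermal stress 1.498 and mast cell -0.356. Other lists moved as well, with oxidative phosphorylation at 0.089, endothelium at 0.191 and brown fat at 0.436 after quantile normalization. With the mean per gene, lists that moved included E2F factors at -0.5, kinase inhibitors at -0.421, nucleotide synthesis at -0.779 and cornified envelope at -0.307. Lipid barrier at 0.761, connexins and desmosome at -0.087, fibroblast at -0.417 and brown fat at 0.28 moved too with the mean per gene. Leaving out 1 array gave -1.322 to -1.026 for G1 cyclins, -0.315 to 0.167 for origin licensing, -0.339 to 0.013 for replication fork, -1.122 to -0.705 for mitosis, 1.136 to 1.435 for interferon, 1.267 to 1.622 for class II, 1.184 to 1.489 for immediate early, -0.898 to -0.507 for ribosomal, 1.430 to 1.489 for epidermal stress, -0.491 to -0.284 for basal, -1.105 to -0.690 for hair keratins, -0.325 to -0.196 for keratin-associated proteins, -1.677 to -1.041 for melanocyte, 0.781 to 1.219 for macrophage, -0.496 to -0.331 for mast cell, -0.318 to -0.041 for muscle and 1.799 to 2.238 for white fat. Connexins and desmosome (-0.423 to 0.050) turned to 0.050 without double-null array 2. Of probe sets not at p under 0.05, Rbl1 (-2.297 to 0.450) turned to 0.450 without double-null array 2, and Rbl2 (0.03) was -0.091 after quantile normalization, -0.028 after median centring, -0.794 with 1 probe set per gene, -0.384 with the mean, -0.116 without p53-null array 2 and -1.019 without double-null array 1 (1.072 without double-null array 2). Pnpla2 is -0.371 with 1 probe set per gene, which takes its other probe set. The cause of these shifts was not tested. With 2 arrays per group and scores without level, no bound on a fold change can be given.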
